A study of Sus scrofa with 18 samples.

Results

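The genes analysed were the 7 subunits of the NMDA receptor, GRIN1, GRIN2A, GRIN2B, GRIN2C, GRIN2D, GRIN3A and GRIN3B, taken by gene name from the 31908 genes of the deposited gene counts. All 7 names were in the table, each with 1 gene, and all 7 passed the filter on low counts, which left 16325 genes to test. The counts came from RNA-seq of whole fetal brains of domestic pigs, from untreated litters of Landrace × Large White gilts inseminated with the sire line LR-M6. Brains were taken on gestation days (GDs) 45, 60 and 90 from 3 female and 3 male fetuses a day, which gave 6 groups of 3 and 18 libraries. The fetuses of a group were separate animals, but the 2 fetuses of opposite sex that shared a day and a litter size may have come from the same litter, which the labels do not say. Since a library held RNA of a whole brain, fewer cells of a type and less RNA per cell cannot be told apart in any value given here.

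NMDA receptors are glutamate-gated cation channels made of 4 subunits, and they let calcium in only when glutamate and a co-agonist are bound and the membrane is depolarized. GRIN1 encodes the obligatory subunit that binds the co-agonist glycine or D-serine, the GRIN2 genes encode the glutamate-binding subunits that set the kinetics of the channel, and the GRIN3 genes encode further glycine-binding subunits. In the mammalian brain the receptor is known for synaptic plasticity and for a developmental change in its subunits, in which GRIN2B and GRIN2D belong to the immature brain and GRIN2A and, in the cerebellum, GRIN2C come later.

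GRIN1 is spliced at cassette exons, of which a 63-base exon (the N1 cassette, in the extracellular part) and a 111-base exon (the C1 cassette, in the intracellular tail) are shown because exon counts are given for them below. GRIN1 lies on the minus strand of the unplaced scaffold AEMK02000682.1 of Sscrofa11.1, and 20 of its 21 exons in the deposited exon table had the same coordinates in the RefSeq annotation of that build. In the following 2 sequences, read 5′ to 3′ from the reference genome, capitals mark the exon and lower case marks 10 bases of intron on each side.
GRIN1 63-base exon (AEMK02000682.1:744356-744418, minus strand): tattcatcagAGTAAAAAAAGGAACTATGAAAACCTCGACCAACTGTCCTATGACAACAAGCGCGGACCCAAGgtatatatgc
GRIN1 111-base exon (AEMK02000682.1:731043-731153, minus strand): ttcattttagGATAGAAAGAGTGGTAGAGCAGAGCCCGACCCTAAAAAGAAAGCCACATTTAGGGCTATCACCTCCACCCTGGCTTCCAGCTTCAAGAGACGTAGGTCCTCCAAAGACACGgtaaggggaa
Both exons were flanked by ag before and gt after, the usual ends of an intron.

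The 4 GRIN2 genes share a run of exons of equal length, and the 126-base exon that holds the code of the first membrane-spanning segment is printed to show how far reads on them can be told apart. It is exon 8 in GRIN2A, GRIN2C and GRIN2D and exon 9 in GRIN2B, and capitals mark the 57 of 126 positions at which the 4 genes were not all alike.
GRIN2A exon (chr3:33067906-33068031, plus strand): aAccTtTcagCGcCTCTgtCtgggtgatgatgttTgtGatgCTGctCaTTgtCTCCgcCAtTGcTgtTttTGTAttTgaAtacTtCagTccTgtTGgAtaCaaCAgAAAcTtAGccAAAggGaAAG
GRIN2B exon (chr5:58874060-58874185, plus strand): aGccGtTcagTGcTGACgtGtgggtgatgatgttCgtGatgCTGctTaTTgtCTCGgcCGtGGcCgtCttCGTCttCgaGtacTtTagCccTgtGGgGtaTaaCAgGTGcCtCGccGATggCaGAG
GRIN2C exon (chr12:6396275-6396400, plus strand): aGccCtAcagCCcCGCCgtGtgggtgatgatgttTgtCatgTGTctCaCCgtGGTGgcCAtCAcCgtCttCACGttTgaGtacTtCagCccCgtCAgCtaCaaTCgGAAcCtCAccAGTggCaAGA
GRIN2D exon (chr6:53822448-53822573, plus strand): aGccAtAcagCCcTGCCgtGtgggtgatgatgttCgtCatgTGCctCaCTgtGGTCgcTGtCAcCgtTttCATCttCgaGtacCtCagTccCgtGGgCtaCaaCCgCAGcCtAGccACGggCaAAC
Over this exon GRIN2C and GRIN2D were the most alike, with 80.2% identical bases, and GRIN2A and GRIN2C the least, with 66.7%. GRIN2A and GRIN2B, the pair compared below, were identical at 73.8% of the bases.

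The deposited gene models of the members differed in how well they covered the end of the transcript, which sets how many reads could be counted. GRIN1 (AEMK02000682.1:727874-751709, minus strand) ended 3 bases short of the RefSeq gene. The models of GRIN2A (chr3:32752351-33143499, plus) and GRIN2B (chr5:58480526-58927583, plus) stopped 5851 and 21152 bases before the end of the RefSeq gene, and those of GRIN2C (chr12:6383808-6399550, plus) and GRIN2D (chr6:53806174-53847788, plus) 1904 and 1747 bases before it. Reads beyond those ends were not counted on the genes, and what they would add was not tested. The model of GRIN3A (chr1:243259493-243415590, minus) ran 3709 bases past the RefSeq end and that of GRIN3B (chr2:77402149-77412136, minus) 42 bases. The first exon of GRIN2D overlapped an exon of KDELR1 and the last exon of GRIN3B overlapped exons of TMEM259, in both cases a gene on the other strand, and the strand setting of the counting was not given in the sources used here. The span of SSNA1 (497 to 1829 counts per library), on the same strand, took in all of GRIN1. A gene without a name on the other strand (0 to 7 counts) lay within the span of GRIN2A. What these overlaps did to the counts was not tested.

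Total gene counts were 15118843 to 19729783 per library, and 4 libraries were the sum of 2 runs. Male GD45 replicate 17 stood apart from the other 2 male GD45 libraries (chi-square per degree of freedom over genes of 112 and 132, against 10.1 between those 2), and the calls that change without it are named beside the results. By its label the brain of this fetus, of a litter of 8, weighed 0.7135 (unit given as mg). Female GD45 replicate 18, also of a litter of 8, had 0.6653. The other GD45 brains had 1.55 to 1.86. What part brain weight had in the values was not tested. Female GD60 replicate 15 also stood apart from the other 2 female GD60 libraries (chi-square per degree of freedom of 68.5 and 50.1, against 6.88 between those 2). The libraries also differed in where reads fell along genes. The share of exon counts on the last exon of genes with more than 1 exon ran from 33.1% to 42.7% per library. It was 38.3% to 41.2% in GD45 females, 36.3% to 42.7% in GD45 males, 33.4% to 42.4% in GD60 females, 37.5% to 39.0% in GD60 males, 35.9% to 42.3% in GD90 females and 33.1% to 34.3% in GD90 males. At GD90 the 2 sexes did not overlap in this share. Among the marker genes used to check the label of the tissue, all 8 neuronal markers had counts in every library.

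Per length, as FPKM (CPM, the TMM-scaled share of counts in parts of 1e6, divided by the gene length in kilobases), GRIN1 was the most abundant member at every GD. Its median was 68.2 FPKM at GD45, 110.6 at GD60 and 232.1 at GD90, against a highest value of 27.1 for any other member in any library. GRIN2D came next with medians of 18.9, 23.3 and 23.3 FPKM, and GRIN3A after it with 10.5, 13.1 and 13.4 FPKM. Their ranges overlapped at GD45 (12.6 to 21.9 for GRIN2D and 7.37 to 13.4 for GRIN3A) and were apart at GD60 (19.6 to 27.1 and 10.4 to 15.4) and at GD90 (18.6 to 26.0 and 10.0 to 16.0). The GRIN3A level rested mostly on its last exon, which held 73.3% to 97.8% of its exon counts per library. The deposited model of GRIN3A ran 3709 bases past the RefSeq end. The other 4 members were far lower on the deposited gene models. Those of GRIN2A, GRIN2B and GRIN2C stopped 5851, 21152 and 1904 bases before the RefSeq end, and that of GRIN2D 1747. What the uncounted reads would add to these levels was not tested. At GD90 the medians were 1.62 FPKM for GRIN2A, 1.04 for GRIN2B, 0.648 for GRIN2C and 0.373 for GRIN3B. Among these 4, GRIN2A, GRIN2B and GRIN2C overlapped at GD90, while the highest GRIN3B value (0.456) lay below the lowest of GRIN2A (0.587) and of GRIN2B (0.657).

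**Figure D1:**
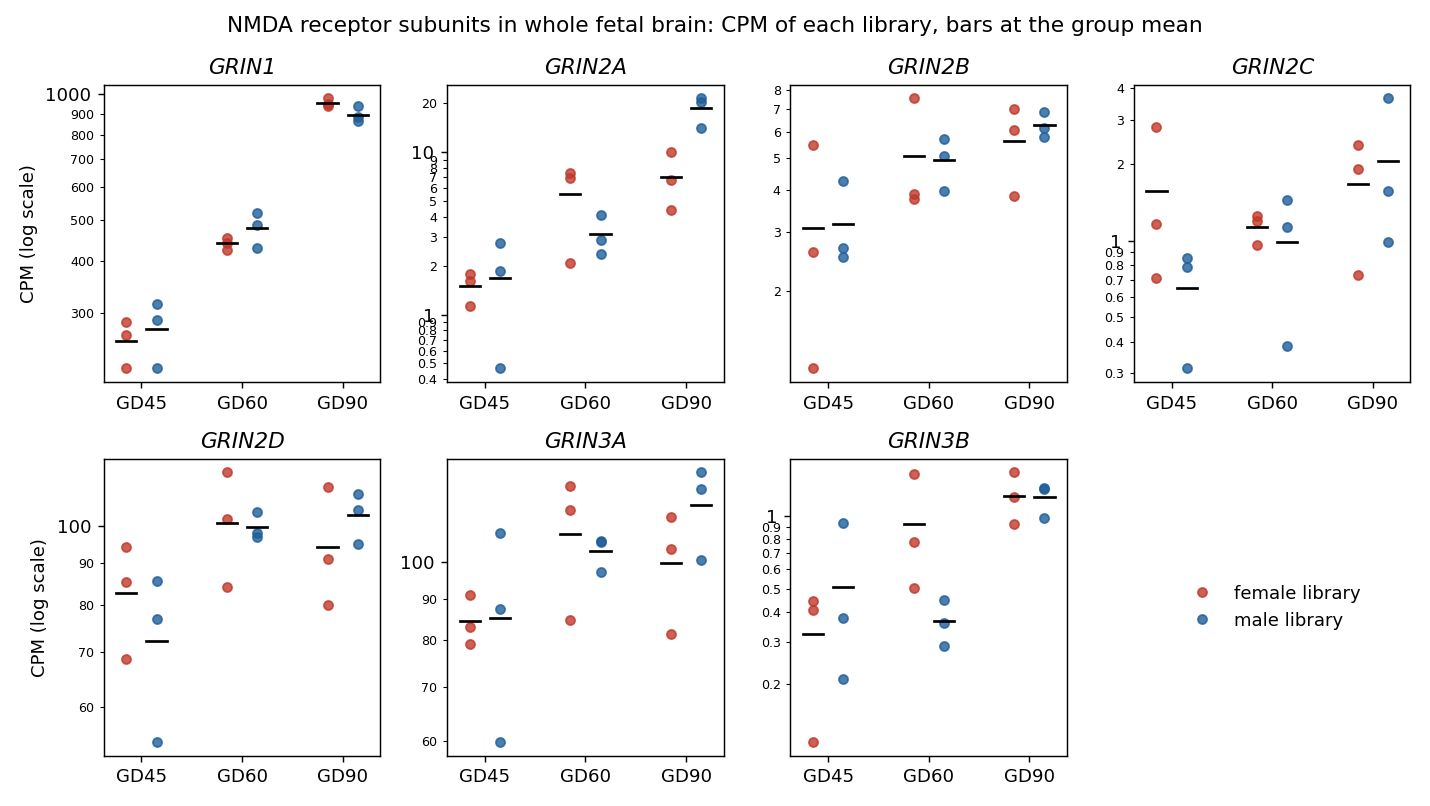
CPM (log scale) of the 7 subunits in each of the 18 libraries by gestation day, with points for female and male libraries and a bar at the mean of the 3 libraries of a group. GRIN1 rose at each step without overlap between GDs, from 221 to 315 CPM at GD45 to 865 to 978 CPM at GD90, and in GRIN2A the 3 GD90 males (14.1 to 21.4 CPM) lay above the 3 GD90 females (4.37 to 10.1 CPM).

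GRIN1, the subunit without which no NMDA receptor forms, rose at each step in both sexes. The female libraries had 266, 285 and 221 CPM at GD45, 452, 442 and 425 at GD60 and 949, 978 and 939 at GD90. The male libraries had 289, 221 and 315 CPM at GD45, 430, 521 and 486 at GD60 and 882, 865 and 939 at GD90. No library of a later GD fell below any library of an earlier one. From GD45 to GD60 GRIN1 rose by 0.77 ± 0.13 (log2 fold change ± SE, n = 3 against 3) in females (edgeR's quasi-likelihood test, Benjamini-Hochberg adjusted p = 0.00216) and by 0.80 ± 0.13 in males (edgeR, adjusted p = 0.00166). From GD60 to GD90 it rose by 1.12 ± 0.13 in females (edgeR, adjusted p = 1.2e-05) and by 0.90 ± 0.13 in males (edgeR, adjusted p = 8.9e-05). Over both sexes the rise from GD45 to GD90 was 3.48-fold (edgeR, adjusted p = 1.3e-10). In males the rise from GD45 to GD60 was not called when only the 6 libraries compared were fitted (log2 fold change 0.79, edgeR, adjusted p = 0.137), and on counts of the last exon alone it was not called in either sex (edgeR, adjusted p = 0.170 in females and 0.0514 in males). Summed levels of cell type markers moved over the same days: the 8 neuronal markers went from 6169 to 8756 CPM at GD45 to 8438 to 10246 CPM at GD90, and 6 progenitor markers from 1326 to 1812 CPM to 461 to 605 CPM. The 5 oligodendrocyte markers went from 22.3 to 41.1 CPM at GD45 to 1716 to 2953 CPM at GD90, and 5 astrocyte markers from 126 to 256 CPM to 1387 to 1800 CPM. What part the makeup of the brain had in the values of the subunits was not tested.

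GRIN2A, the glutamate-binding subunit of the mature forebrain, rose most among the members in relative terms, from a low level. Counts in females were 22, 32 and 28 at GD45, 124, 111 and 40 at GD60 and 73, 152 and 102 at GD90. Counts in males were 35, 44 and 6 at GD45, 71, 48 and 37 at GD60 and 240, 330 and 326 at GD90. The 3 GD90 males stood above every other library, and the lowest count was that of male GD45 replicate 17. Over both sexes GRIN2A rose by 1.36 ± 0.36 on the log2 scale from GD45 to GD60 (n = 6 against 6, edgeR, adjusted p = 0.0147) and by 1.47 ± 0.33 from GD60 to GD90 (edgeR, adjusted p = 0.00185). The rise from GD45 to GD90 was 7.09-fold (log2 fold change 2.83 ± 0.36, edgeR, adjusted p = 4.1e-06). By sex, the change from GD45 to GD60 was 1.86 ± 0.50 in females (edgeR, adjusted p = 0.0331) and 0.85 ± 0.51 in males (edgeR, adjusted p = 0.415, and 0.43 with adjusted p = 0.611 without male GD45 replicate 17), and from GD60 to GD90 it was 0.37 ± 0.46 in females (edgeR, adjusted p = 0.595) and 2.57 ± 0.48 in males (edgeR, adjusted p = 0.000748). The call in GD60 females was lost when any of 5 of the 6 libraries compared was left out (female GD45 replicates 12, 13 and 18 and female GD60 replicates 3 and 5, edgeR, adjusted p 0.0780 to 0.143). The rise from GD45 to GD60 over both sexes was not called with the litter pair as a random replicate block (limma, adjusted p = 0.0584).

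At GD90 GRIN2A was higher in males than in females, with 14.1, 20.3 and 21.4 CPM against 4.37, 10.1 and 6.75 CPM, without overlap. The difference was 1.40 ± 0.46 on the log2 scale (unadjusted p = 0.00707 and adjusted p = 0.350 from edgeR over all genes), and the interaction of sex and day from GD60 to GD90 was 2.21 ± 0.66 (unadjusted p = 0.00388, edgeR, adjusted p = 0.183), so neither passed the threshold. Both passed when only the libraries of the groups compared were fitted (edgeR, adjusted p = 0.0451 and 0.0438). The interaction also passed without male GD45 replicate 17 (2.20, edgeR, adjusted p = 0.0237), a library of neither day compared, which shares only the scaling and the estimate of the spread with them. Without it 2209 genes passed for this interaction, against 0 with it. The level of GRIN2A moved with the share of exon counts on the last exon described above. Within GD90, ordering the 6 libraries from the lowest to the highest last-exon share (33.1%, 33.8%, 34.3%, 35.9%, 40.6% and 42.3%) ordered GRIN2A from the highest to the lowest level (21.4, 20.3, 14.1, 10.1, 6.75 and 4.37 CPM). At GD45 and GD60 as well, the library with the highest last-exon share had the lowest GRIN2A level, 0.466 CPM in male GD45 replicate 17 (42.7%) and 2.09 CPM in female GD60 replicate 15 (42.4%).

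**Figure D2:**
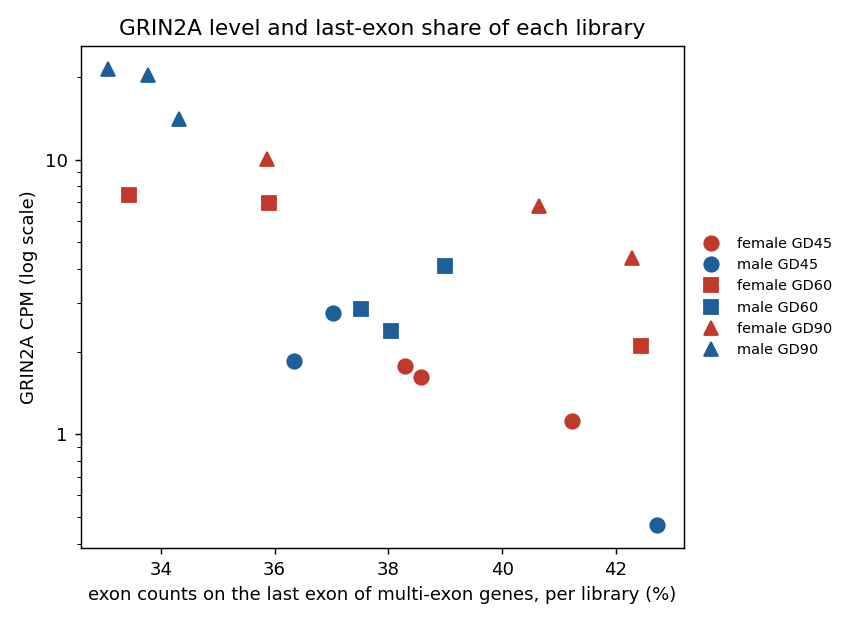
GRIN2A level in CPM (log scale) against the share of exon counts on the last exon of genes with more than 1 exon, in percent, with 1 point per library, the shape for the gestation day and the colour for the sex. The GD90 males lie at 33.1% to 34.3% and 14.1 to 21.4 CPM, and male GD45 replicate 17 lies lowest at 42.7% and 0.466 CPM.

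A model with that share as a covariate, added after the exon counts were seen, gave other values for GRIN2A than the model without it. The change from GD60 to GD90 became 0.97 ± 0.28 in females (edgeR, adjusted p = 0.0144) and 1.59 ± 0.32 in males (edgeR, adjusted p = 0.00144). The difference of males from females at GD90 became 0.21 ± 0.34 (unadjusted p = 0.549, edgeR, adjusted p = 1.0) and the interaction from GD60 to GD90 became 0.62 ± 0.47 (unadjusted p = 0.207, edgeR, adjusted p = 0.889). The rise from GD45 to GD90 over both sexes remained past the threshold at 2.38 ± 0.22 (edgeR, adjusted p = 6.7e-08). Because the last-exon shares of males and females did not overlap at GD90, sex and read position cannot be told apart within that day. GRIN1 hardly changed between the models, at 1.12 and 1.11 in females and 0.90 and 0.92 in males from GD60 to GD90. The difference of males from females at GD90 changed its sign in GRIN2D, from 0.13 to -0.27, and in GRIN3A, from 0.24 to -0.18, without passing the threshold in either model.

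**Figure D3:**
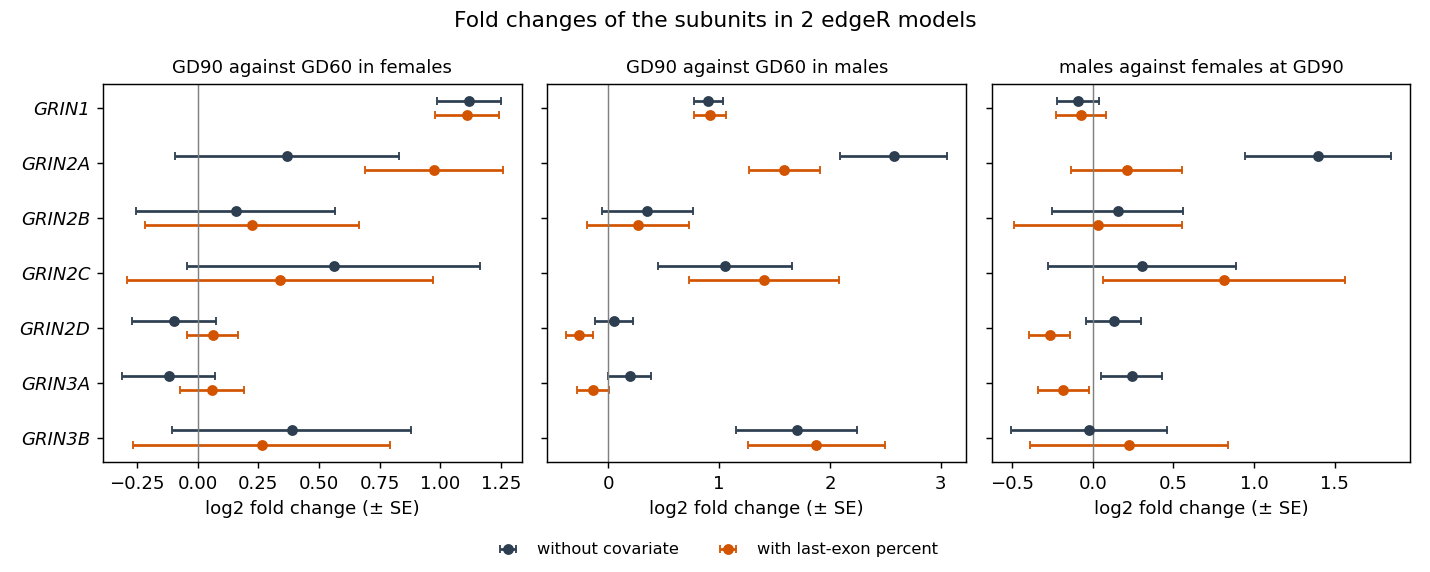
Log2 fold change with its SE of the 7 subunits for GD90 against GD60 in females, in males, and for males against females at GD90, in the edgeR model of 6 groups and in the same model with the last-exon share as a covariate. GRIN2A moves from 1.40 to 0.21 between the models in the comparison of the sexes at GD90, while GRIN1 stays at -0.09 and -0.07.

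GRIN2B, the main glutamate-binding subunit of the immature forebrain in rodents, was measured at low counts of 23 to 126 per library. Its level had a lowest, median and highest value of 1.17, 2.65 and 5.47 CPM at GD45, of 3.76, 4.53 and 7.54 at GD60 and of 3.84, 6.11 and 7.01 at GD90. The ranges of all 3 GDs overlapped. From GD45 to GD90 GRIN2B rose by 0.94 ± 0.30 on the log2 scale (n = 6 against 6, edgeR, adjusted p = 0.0125). Neither step on its own passed the threshold, with 0.68 ± 0.30 from GD45 to GD60 (edgeR, adjusted p = 0.129) and 0.25 ± 0.29 from GD60 to GD90 (edgeR, adjusted p = 0.507). Without female GD45 replicate 18, whose 95 counts were the most at that day, the first step was 1.03 (edgeR, adjusted p = 0.0167).

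GRIN2C, a subunit known from cerebellar granule cells, had 5 to 62 counts per library and passed the threshold in none of the 12 comparisons. Its median was 0.823 CPM at GD45, 1.16 at GD60 and 1.75 at GD90, and the highest library of GD45 (2.82 CPM, female replicate 18) lay above 5 of the 6 libraries of GD90. The change from GD45 to GD90 was 0.88 ± 0.43 (edgeR, adjusted p = 0.0904). Without female GD45 replicate 18 it was 1.25 (edgeR, adjusted p = 0.0239), and without female GD90 replicate 7 it was 1.06 (edgeR, adjusted p = 0.0479). The 6 markers of cerebellar granule cells summed to 112 to 241 CPM at GD45, 84.1 to 173 at GD60 and 86.3 to 283 at GD90. Single markers in that sum pointed opposite ways. From GD45 to GD60 over both sexes CBLN3 had a log2 fold change of 0.62 and ZIC1 of -0.97, without passing. From GD60 to GD90 in females CBLN3 rose by 0.94 (edgeR, adjusted p = 0.0444), and ZIC1 was at -0.94 without passing. In males CBLN3 and ZIC1 were at 0.58 and 0.25, without passing. GABRA6 was not tested.

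GRIN2D, a glutamate-binding subunit of slow kinetics known from the embryonic brain and from interneurons, held its level between GD60 and GD90 within the spread of the libraries. Its lowest, median and highest values were 54.3, 81.2 and 94.2 CPM at GD45, 84.2, 100.01 and 116 CPM at GD60 and 80.1, 99.9 and 112 CPM at GD90. Its log2 fold change from GD60 to GD90 was -0.02, with a 95% confidence interval of -0.29 to 0.24. GRIN2D rose by 0.37 ± 0.12 from GD45 to GD60 (n = 6 against 6, edgeR, adjusted p = 0.0452) and by 0.35 ± 0.12 from GD45 to GD90 (edgeR, adjusted p = 0.0218). The first of these lay close to the threshold and was lost in 18 of 30 alternatives, among them the removal of any of 12 of the 18 libraries (edgeR, adjusted p 0.0563 to 0.123), which were female GD45 replicates 12 and 18, male GD45 replicate 17, female GD60 replicates 3 and 5, male GD60 replicates 4, 6 and 16, female GD90 replicate 9 and male GD90 replicates 1, 8 and 10. The second was lost without female GD45 replicate 12, male GD45 replicate 17 or female GD90 replicate 7 (edgeR, adjusted p 0.0518 to 0.0717). The 6 interneuron markers summed to 441 to 503 CPM at GD45, 520 to 603 at GD60 and 541 to 622 at GD90. That sum holds markers that went opposite ways from GD60 to GD90 over both sexes. DLX1, DLX2 and LHX6 were at -1.49, -1.64 and -0.99 on the log2 scale, GAD1 and GAD2 at 0.69 and 0.39 (all called by edgeR). SST was at 0.35 and did not pass (edgeR, adjusted p = 0.149).

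GRIN3A, a glycine-binding subunit known to be abundant in early development and to lower calcium entry, was measured mostly on its last exon. The size of its change differed between that exon and the others. Its lowest, median and highest values were 59.8, 85.3 and 109 CPM at GD45, 84.7, 106 and 125 CPM at GD60 and 81.4, 109 and 129 CPM at GD90. Between GD60 and GD90 its log2 fold change was 0.04, with a 95% confidence interval of -0.26 to 0.33. The rise from GD45 to GD90 was 0.35 ± 0.14 (edgeR, adjusted p = 0.0347). It was lost without any of 8 libraries (female GD45 replicates 12 and 18, male GD45 replicates 11 and 17, female GD90 replicates 7 and 9 and male GD90 replicates 8 and 10, edgeR, adjusted p 0.0510 to 0.0923) and with the last-exon share as a covariate (0.19 ± 0.10, edgeR, adjusted p = 0.112). From GD45 to GD60 the change was 0.32 ± 0.14 (edgeR, adjusted p = 0.123), and without male GD45 replicate 14 it was 0.42 (edgeR, adjusted p = 0.0327). Of the exon counts of GRIN3A, 73.3% to 97.8% per library lay on its last exon of 4440 bases, against 38.4% to 69.8% for GRIN1 and 34.2% to 60.8% for GRIN2D. Outside the last exon the lowest, median and highest counts per library were 17, 97.5 and 243 at GD45, then 114, 174.5 and 467 at GD60, then 61, 356.5 and 505 at GD90, with wide overlap. On those counts GRIN3A rose by 1.37 from GD45 to GD90 (edgeR, adjusted p = 0.0153), while on the last exon alone the change was 0.28 (edgeR, adjusted p = 0.155). From GD45 to GD60 the change outside the last exon was 1.12 (edgeR, adjusted p = 0.126), and from GD60 to GD90 it was -0.79 in females and 1.29 in males (edgeR, adjusted p = 0.430 and 0.123).

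GRIN3B, a glycine-binding subunit known mainly from motor neurons, was the lowest member, with 2 to 25 counts per library. The counts were 2 to 12 at GD45, 5 to 25 at GD60 and 14 to 23 at GD90. It rose from GD60 to GD90 by 1.70 ± 0.54 on the log2 scale in males (edgeR, adjusted p = 0.0236), where the counts went from 5, 6 and 7 to 22, 16 and 20 without overlap. In females, with 25, 8 and 15 counts at GD60 and 20, 14 and 23 at GD90, the change was 0.39 ± 0.49 (edgeR, adjusted p = 0.599). Over both sexes GRIN3B rose by 1.04 ± 0.37 from GD60 to GD90 (edgeR, adjusted p = 0.0300) and by 1.59 ± 0.38 from GD45 to GD90 (edgeR, adjusted p = 0.00192). The call in males was lost without any of 5 libraries (male GD60 replicates 4, 6 and 16 and male GD90 replicates 1 and 10, edgeR, adjusted p 0.0503 to 0.0711). That over both sexes from GD60 to GD90 was lost without any of 8 (female GD60 replicates 5 and 15, male GD60 replicates 4 and 6, female GD90 replicates 2 and 9 and male GD90 replicates 1 and 10, edgeR, adjusted p 0.0525 to 0.0730).

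Counted over the family, the members called were higher at the later day in each case. From GD45 to GD60, 2 of 7 were called in females (GRIN1 and GRIN2A), where 7.22% of the 16325 genes tested were called in either direction, and 1 of 7 in males (GRIN1), where 5.61% were. From GD60 to GD90, 1 of 7 was called in females (GRIN1), against 27.1% of all genes, and 3 of 7 in males (GRIN1, GRIN2A and GRIN3B), against 34.5%. Over both sexes, 3 of 7 members were called from GD45 to GD60 (GRIN1, GRIN2A and GRIN2D, against 16.7% of all genes), 3 of 7 from GD60 to GD90 (GRIN1, GRIN2A and GRIN3B, against 42.4%), and 6 of 7 from GD45 to GD90 (all but GRIN2C, against 57.5%). From GD60 to GD90, over both sexes, the share of members called was near that of all genes, and in females it was below it. The median log2 fold change of the 7 was 0.54 from GD45 to GD60 and 0.81 from GD60 to GD90, and that of all genes tested was -0.01 in both cases.

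Between the sexes, edgeR's quasi-likelihood test called 0 of 7 members at GD45, GD60 and GD90, where it called 0.0919%, 0.098% and 0.098% of all genes, and 0 of 7 for the interactions of sex and day, where it called 0% of all genes. DESeq2 called 0 of 7 members in these 5 comparisons as well, with 18, 21 and 52 genes called between the sexes at the 3 GDs and 0 and 268 for the interactions, and 423, 784, 2213, 333 and 3232 genes had an unadjusted p under 0.05 in edgeR. At an unadjusted p under 0.05, the members were GRIN3B at GD60 (lower in males, log2 fold change -1.33 ± 0.55, edgeR, adjusted p = 0.779), GRIN2A at GD90, GRIN3B in the interaction from GD45 to GD60 (-1.89 ± 0.81, edgeR, adjusted p = 1.00) and GRIN2A in that from GD60 to GD90. For GRIN1 the interval of the difference of males from females was narrow, with 95% bounds of -0.38 and 0.19 at GD90 on the log2 scale.

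The makeup of the family by GD was described as the share of each member in the summed FPKM of the 7. The sum itself had a median of 95.9 FPKM at GD45 (86.5 to 105), of 153 at GD60 (137 to 167) and of 268 at GD90 (258 to 284). The median share of GRIN1 was 68.2% at GD45 (62.8% to 78.4%), 75.1% at GD60 (71.1% to 77.2%) and 84.7% at GD90 (82.9% to 88.2%). The highest GRIN1 share at GD45 was that of male replicate 17, and the next was 70.9%. The median share of GRIN2D was 19.9%, 15.1% and 8.58% at the 3 GDs, and that of GRIN3A 10.9%, 8.70% and 4.86%, while their own levels did not fall. The share of GRIN2A was 0.234%, 0.307% and 0.600%, that of GRIN2B 0.477%, 0.497% and 0.397%, and those of GRIN2C and GRIN3B were at most 1.21% and 0.285% in any library. GRIN1 at GD90 and GRIN2D and GRIN3A at GD90 did not overlap in share with either earlier GD. The share of GRIN3A rests mostly on its last exon, which held 73.3% to 97.8% of its exon counts per library. The shares of the GRIN2 genes rest on deposited models that stop before the RefSeq end, by 21152 bases in GRIN2B. What the uncounted reads would add to the shares was not tested. Shares rest on the gene lengths in the table, and on raw counts the mean share of GRIN1 was 61.1%, 67.9% and 80.1% at the 3 GDs instead of 68.6%, 74.7% and 85.05%.

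**Figure D4:**
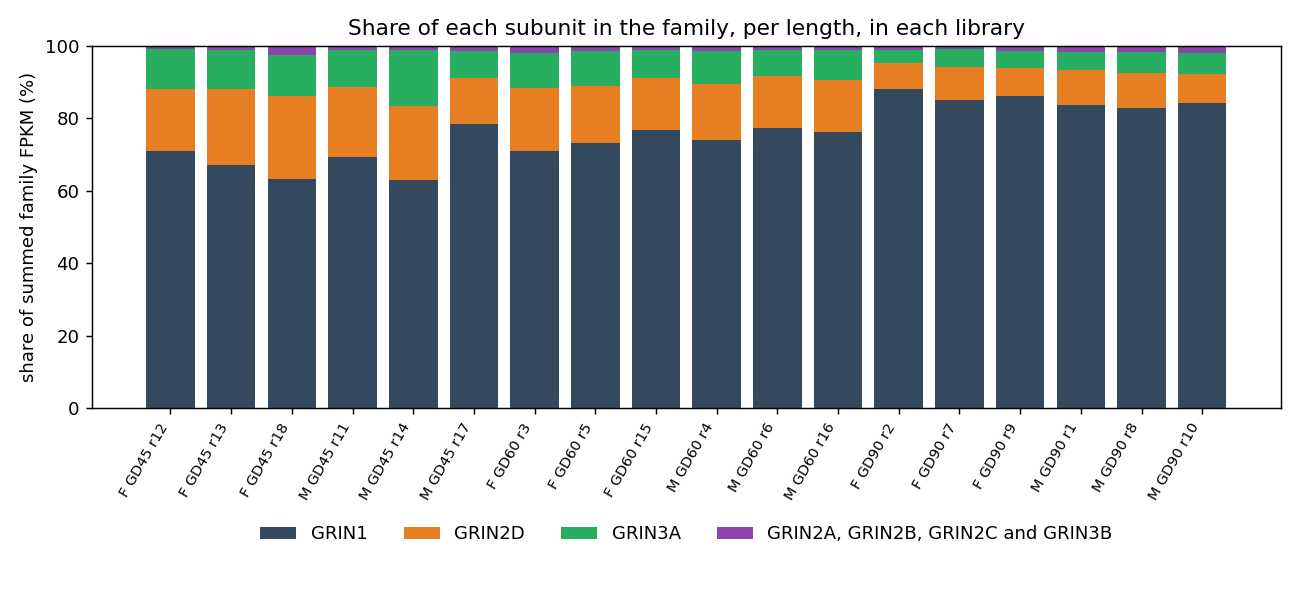
Share of each subunit in the summed FPKM of the 7 subunits (percent, stacked to 100) for each of the 18 libraries, by gestation day and sex, with GRIN2A, GRIN2B, GRIN2C and GRIN3B added together. The GRIN1 share runs from 62.8% to 78.4% at GD45 and from 82.9% to 88.2% at GD90, and the median GRIN2D share goes from 19.9% to 8.58%.

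Within the 4 GRIN2 genes, GRIN2D made up a median of 95.1% of the FPKM at GD45, 93.1% at GD60 and 86.7% at GD90, and GRIN2A 1.01%, 1.87% and 5.57%. As a count that does not depend on the ends of the deposited gene models, the 6 exons of equal length in all 4 GRIN2 genes (974 bases in each) were summed. The RefSeq gene ran 21152 bases past the deposited end in GRIN2B and 1747 in GRIN2D. These exons may therefore lie at unlike distances from the end of the transcript. What part read position had in these counts was not tested. On these exons the 6 libraries of a day together held 13 counts of GRIN2A, 21 of GRIN2B, 45 of GRIN2C and 1467 of GRIN2D at GD45, and 97, 61, 60 and 1739 at GD90. Some of the small sums at GD45 rested on 1 library: without female replicate 18 the GRIN2C sum was 26, and without male replicate 11 the GRIN2A sum was 7. GRIN2D thus had 94.9% of these counts at GD45, 94.5% at GD60 and 88.9% at GD90. The 4 exons of equal length in GRIN3A and GRIN3B (579 bases) held 138 counts of GRIN3A and 11 of GRIN3B at GD45 and 262 and 30 at GD90. Without female GD45 replicate 12 the GRIN3B sum at GD45 was 7.

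The ratio of GRIN2A to GRIN2B per length, the pair known for the developmental change in subunits, was compared between GDs with an exact two-sided permutation test over libraries. Its lowest, median and highest values were 0.0856, 0.553 and 0.803 at GD45, 0.326, 0.585 and 1.41 at GD60 and 0.567, 1.92 and 2.76 at GD90. The 4 libraries with more GRIN2A than GRIN2B at GD90 were the 3 males and female replicate 7. On the log2 scale the mean was -1.35 ± 1.25 (SD, n = 6) at GD45, -0.70 ± 0.77 at GD60 and 0.57 ± 0.95 at GD90. The permutation test took the libraries of a day as independent, though a female and a male of the same litter size may share a litter. The difference from GD60 to GD90 was 1.26 (exact permutation p = 0.0346, adjusted p = 0.0519 over the 3 pairs of GDs), from GD45 to GD90 1.92 (exact permutation p = 0.0195, adjusted p = 0.0519) and from GD45 to GD60 0.65 (exact permutation p = 0.314, adjusted p = 0.314). None passed the threshold of 0.05 after adjustment. Both differences from GD90 passed it when female GD60 replicate 5, female GD90 replicate 2 or female GD90 replicate 9 was left out (exact permutation, adjusted p 0.026 to 0.039). Without male GD45 replicate 17, whose ratio of 0.0856 was the lowest, the differences from GD45 were 0.21 to GD60 and 1.48 to GD90, and neither passed the exact permutation test after adjustment. By sex, the ratio rose on average by 0.30 from GD60 to GD90 in females and by 2.23 in males (exact permutation p = 0.7 and 0.1, where 0.1 is the smallest p that 3 against 3 can give). The 4 GD90 libraries with more GRIN2A than GRIN2B were also the 4 with the lowest last-exon share of that day (33.1% to 35.9%, against 40.6% and 42.3% in the other 2), and the part of read position in the ratio was not tested. Both genes lack a stretch at the end of their deposited models, a longer one in GRIN2B, which makes the ratio at a GD uncertain. What the missing stretches did to the change of the ratio between GDs was not tested.

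Exon counts were compared to ask whether the members changed in exon usage with age. Of the exons of the 7 genes, 46 could be tested, among them all 21 of GRIN1, 12 of GRIN2D, 7 of GRIN3A, 4 of GRIN2A and 2 of GRIN2B. With edgeR's quasi-likelihood test of exon usage, 0 of the 46 passed from GD45 to GD60, where 0.013% of the 76800 exons tested passed, and 0 from GD60 to GD90, where 0.1% did. At an unadjusted p under 0.05 the counts were 7 and 0 of 46. The smallest adjusted p was 0.327 (edgeR), for the third exon of GRIN1, 177 bases long, from GD45 to GD60 (log2 change relative to the gene 0.66).

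**Figure D5:**
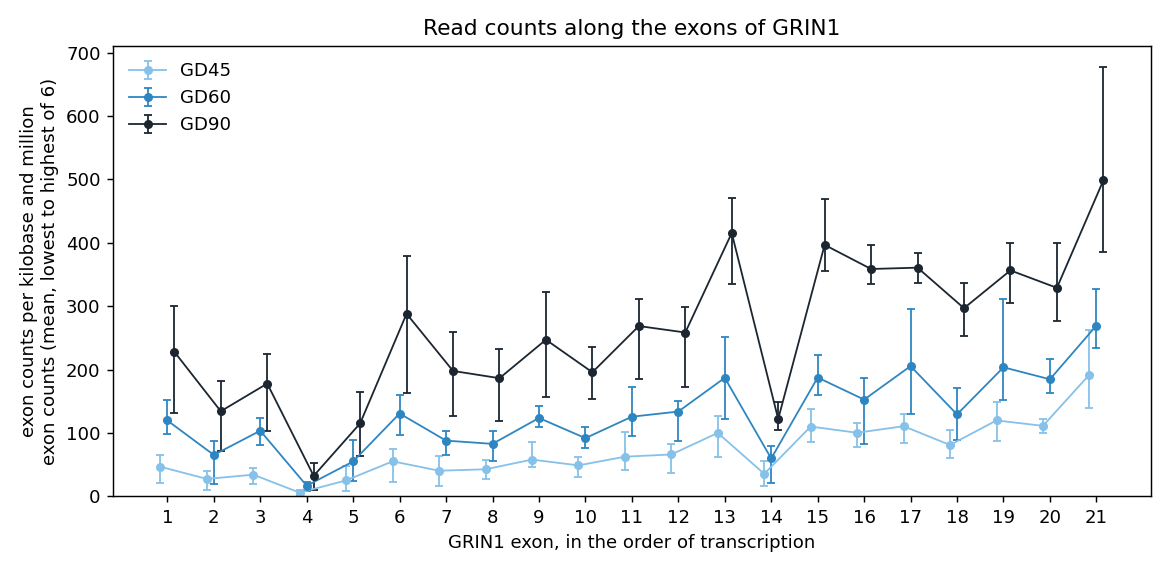
Counts on the 21 exons of GRIN1, in the order of transcription, per kilobase of exon and per 1e6 exon counts, as the mean of the 6 libraries of a gestation day with the lowest and the highest library. Counts rise on every exon with age, the 63-base exon (exon 4) has the lowest mean at each day, and the last exon (1240 bases) has the highest.

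The 2 cassette exons of GRIN1 printed above differed in their counts per base relative to their neighbours. The 63-base exon is the shortest exon of GRIN1, and what part exon length had in its counts was not tested. The 63-base exon had 0 to 5 counts per library at GD45, 4 to 11 at GD60 and 5 to 26 at GD90. Per base, this was a median of 18.7%, 21.8% and 21.6% of the counts on the exons on both sides of it. The range was 0% to 40.1% at GD45, where it rests on fewer counts, and 9.85% to 27.8% at GD90. The 111-base exon had 84 to 121 counts at GD45, 128 to 201 at GD60 and 253 to 346 at GD90, a median of 93.2%, 104.3% and 90.9% per base of the exon before it. Usage relative to the gene did not pass the test for either exon, with a log2 change from GD60 to GD90 of -0.07 for the 63-base exon and -0.09 for the 111-base exon (edgeR, adjusted p = 1.00 for both). The library without a read on the 63-base exon could have missed up to 3, by counting error alone.

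The other genes of the receptor were described in lists of scaffold proteins, signalling proteins, trafficking proteins, co-agonist metabolism and transcription factors. Of 52 genes in these lists, 48 were in the table and tested, while SHANK1, CDK5, CSNK2A1 and SRR were not matched by name and are not analysed here. Over both sexes, 18 rose and 3 fell from GD45 to GD60, where 9.35% of all genes were called higher and 7.37% lower, and 27 rose and 8 fell from GD60 to GD90, where 21.4% and 20.9% were.

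Scaffold proteins of the postsynaptic density rose in 10 of 16 cases and fell in 1 from GD60 to GD90, with a median log2 fold change of 0.66. Of all genes, 21.4% were called higher at that step and 20.9% lower. ACTN2, an actinin that links GRIN1 to actin, rose from a median of 5.49 to 34.1 CPM (log2 fold change 2.67 ± 0.17, edgeR, adjusted p = 5.4e-09). NETO1, an auxiliary protein of the receptor, rose by 0.97 ± 0.26 (edgeR, adjusted p = 0.0066). DLG4 (PSD-95), the scaffold that binds the tails of GRIN2 subunits, rose from a median of 379 to 632 CPM (0.74 ± 0.10, edgeR, adjusted p = 1.2e-05), and its relative DLG3 (SAP102) had a change of 0.68 ± 0.33 that did not pass (edgeR, adjusted p = 0.113). EPHB2, an ephrin receptor that binds NMDA receptors, fell by 0.60 on the log2 scale (edgeR, adjusted p = 5.4e-05). HOMER3 was at -0.07 ± 0.17 (edgeR, adjusted p = 0.766).

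Signalling proteins downstream of calcium entry rose in 10 of 14 cases and fell in 1 from GD60 to GD90, with a median of 0.78. Of all genes, 21.4% were called higher at that step and 20.9% lower. NRGN (neurogranin), which binds calmodulin, rose from a median of 94.1 to 974.7 CPM (3.35 ± 0.17, edgeR, adjusted p = 3.4e-10). CAMK2A, the kinase that binds GRIN2B, rose from 125 to 640 CPM (2.38 ± 0.07, edgeR, adjusted p = 6.6e-13). Both had also risen from GD45 to GD60, by 2.18 and 1.02 (edgeR, adjusted p = 7.3e-07 and 5.5e-07). SRC, a tyrosine kinase that acts on the receptor, fell by 0.75 (edgeR, adjusted p = 6.8e-07), and PTPN5, the phosphatase STEP, was at 0.05 ± 0.12 (edgeR, adjusted p = 0.779).

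Among 6 trafficking genes 2 rose and 1 fell from GD60 to GD90, where 21.4% of all genes were called higher and 20.9% lower. KIF17, the kinesin motor that carries GRIN2B, rose by 1.01 ± 0.24 (edgeR, adjusted p = 0.0028), and its adaptor APBA1 rose by 0.95 ± 0.15 (edgeR, adjusted p = 1.1e-04). LIN7A fell by 0.53 (edgeR, adjusted p = 0.0028), and LIN7B was at -0.27 ± 0.20 (edgeR, adjusted p = 0.306).

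Genes of co-agonist supply rose in 5 of 7 cases and fell in 0 from GD60 to GD90, with a median of 0.59. Of all genes, 21.4% were called higher at that step and 20.9% lower. SLC7A10, a transporter of D-serine and glycine, rose from a median of 5.67 to 20.7 CPM (1.96 ± 0.14, edgeR, adjusted p = 2.3e-08). PHGDH, the first enzyme of serine synthesis, fell by 0.97 from GD45 to GD60 (edgeR, adjusted p = 3.1e-04) and rose by 1.29 ± 0.15 from GD60 to GD90 (edgeR, adjusted p = 4.6e-06). SLC6A9, the glycine transporter GlyT1, was at 0.25 ± 0.10 (edgeR, adjusted p = 0.0555), and DAO, which degrades D-serine, was at 0.03 ± 0.19 (edgeR, adjusted p = 0.918).

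All 5 transcription factors and chromatin genes listed as known regulators of GRIN genes fell from GD60 to GD90, with a median of -0.76. Of all genes, 20.9% were called lower at that step. EZH2, a histone methyltransferase of progenitor cells, fell from a median of 47.3 to 12.1 CPM (-1.97 ± 0.09, edgeR, adjusted p = 1.1e-10), and TBR1, a factor of cortical neurons that acts on GRIN2B, fell from 218 to 109 CPM (-0.96 ± 0.12, edgeR, adjusted p = 5.7e-06). REST, a repressor of neuronal genes, fell from 32.3 to 20.2 CPM (-0.69 ± 0.11, edgeR, adjusted p = 9.0e-05), and NRF1, an activator with sites in GRIN promoters, fell by 0.54 (edgeR, adjusted p = 2.3e-04). Only EZH2 had also fallen from GD45 to GD60 (-0.73, edgeR, adjusted p = 1.7e-05), among these 5.

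For comparison, the AMPA receptor subunits, the fast glutamate receptors, rose in 3 of 4 cases from GD60 to GD90, where 21.4% of all genes were called higher. GRIA1 rose by 0.61 ± 0.11 (edgeR, adjusted p = 2.8e-04), GRIA4 by 0.47 ± 0.11 (edgeR, adjusted p = 0.0029) and GRIA3 by 0.37 ± 0.13 (edgeR, adjusted p = 0.0315), and GRIA2, which makes the channel impermeable to calcium, was at 0.27 ± 0.16 (edgeR, adjusted p = 0.207). Among the 5 kainate receptor subunits 1 rose, near the share of all genes, and this was GRIK1 (0.91 ± 0.09, edgeR, adjusted p = 1.2e-06). GRIK4, GRIK5 and GRIK3 were at 0.22, -0.15 and -0.21 (edgeR, adjusted p = 0.0808, 0.242 and 0.233). The differences between the families were not tested.

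As a description of likeness, the genes whose log2 CPM followed each member most closely over the 18 libraries were taken from 12802 named genes with a mean of at least 1 CPM. The libraries share GD, sex and read position, so that any gene that moves with those follows as well. For GRIN1 they were NGEF, ARHGEF4, DMTN, LYNX1 and CRTAC1 (Pearson's r 0.989 to 0.991). For GRIN2A they were ATXN1, CACNB4, HIVEP2, CACNA1B and ATRN (r 0.979 to 0.989). For GRIN3A they were MYT1L, LRRC55, MACROD2, SOCS7 and CDK5R1 (r 0.936 to 0.950), and for GRIN2D TRO, ST3GAL2, CDK5R1, VGLL4 and FBXL18 (r 0.890 to 0.906), with CDK5R1 in both lists. The closest to GRIN2B was NLRC5 (r 0.846) and the closest to GRIN2C was PYROXD2 (r 0.783), with the other 4 of each between 0.779 and 0.802 and between 0.729 and 0.762. GRIN3B was under 1 CPM on average and was left out.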

How the data were processed

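Gene counts and exon counts of 18 libraries, deposited by the authors as whole-number counts without normalization, were analysed. The submitters' processing notes name FastQC, Trimmomatic, HISAT2 and featureCounts, with genome build Sscrofa11.1. Strand and multi-mapping settings were not given in the sources used here. All 22 columns of the gene table were matched to libraries by their labels, and the 2 runs of 4 libraries were summed, which left 15118843 to 19729783 counts per library.

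Genes were filtered with filterByExpr, which kept 16325 genes and 99.93% of the counts, scaled by TMM and tested with edgeR 4.0.16 (R 4.3.3) by the quasi-likelihood F test in a model of the 6 groups on all 18 libraries, with Benjamini-Hochberg adjustment and a threshold of 0.05. The SE was the log2 fold change divided by the square root of F. Exon usage was tested with diffSpliceDGE on 80134 exons kept, of which 76800 could be tested. The GRIN2A to GRIN2B ratio (pseudocount 1) was tested over all 924 splits of 6 against 6 libraries (Python 3.11.15). Tested on simulated data, the gene model recovered 85% of 200 genes changed by 2 on the log2 scale with 2 false calls (GD90 against GD60 in males, 16325 genes), and the exon model 86% of 200 exons, with 29 calls in other genes and 95 on other exons of the changed genes (80134 exons).

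All 7 members were named. In each pathway list the genes with the largest and the smallest log2 fold change from GD60 to GD90 were named, up to 4 a list, with DLG3, DLG4, CAMK2A, REST and TBR1, and for likeness the 5 genes of highest Pearson's r. The members and lists were chosen with earlier results of these data known. Replicate numbers were not shared between groups. In 9 pairs of a female and a male of 1 day and litter size, the labels name no litter. Alternatives were DESeq2 1.42.0, limma 3.58.1 with the pair as a block, other filters, scalings and tests, a gene length offset, exon counts on and outside the last exon, the last-exon share as a covariate, and each library left out. P-values measure the spread between fetuses, and intervals of counts cover counting error only.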

Additional observations from a re-analysis of the deposited data

How the results depend on the processing

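GRIN1, GRIN2A and GRIN3B kept their direction over both sexes in every alternative run, and none of the results changed sign past the threshold. Of 7 members, the number called from GD45 to GD60 in females was 1 without TMM factors, with only the libraries compared, with the litter pair as a replicate block (limma), on counts outside the last exon and with a log2 fold change beyond 1, and 0 on last-exon counts. In males it was 0 with only the libraries compared, on last-exon counts and with a log2 fold change beyond 1, and 2 with the last-exon share as a covariate. Over both sexes it was 1 with the replicate block, on last-exon counts and beyond a log2 fold change of 1, and from GD45 to GD90 3 on last-exon counts and beyond 1. In females from GD60 to GD90 the covariate gave 2. With only the libraries compared, 1 was called between the sexes at GD90 and 1 for the interaction from GD60 to GD90. Deviations of the 2 fetuses of a litter pair from their group means correlated at -0.0932 to 0.424 over the 9 pairs. The block changed no other call of a member than those of GRIN2A and GRIN2D from GD45 to GD60. Pathway genes that rose from GD45 to GD60 were 7 outside the last exon, 8 on it and 7 beyond a log2 fold change of 1, and those that fell were 1, 0 and 0. From GD60 to GD90, 12 rose on last-exon counts and 10 beyond 1, and 4 fell outside the last exon, 2 on it and 1 beyond 1. On raw counts the mean GRIN1 share was 61.1%, 67.9% and 80.1%. Exon splits, the covariate and the raw-count shares were chosen after seeing the data.

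Leaving out each library in turn gave 1 to 2 members called in females and 1 in males from GD45 to GD60, 1 in females and 2 to 3 in males from GD60 to GD90, and over both sexes 2 to 4, 2 to 3 and 4 to 6 for GD45 to GD60, GD60 to GD90 and GD45 to GD90. The sexes gave 0 members at each day, and the interactions 0 and 0 to 1. Pathway genes that rose were 14 to 22 and 25 to 33 and those that fell 3 to 4 and 8, in the same order of steps. The log2 ratio of GRIN2A to GRIN2B differed by 0.21 to 0.86, 1.08 to 1.54 and 1.48 to 2.19 (GD60 against GD45, GD90 against GD60, GD90 against GD45). The GRIN1 share was 66.7% to 69.8%, 74.2% to 75.5% and 84.4% to 85.5%. Exons called were 0.

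Depth limits GRIN3B (2 to 25 counts), GRIN2C (5 to 62) and GRIN2A at GD45 (6 to 44), and no exon of GRIN2C or GRIN3B could be tested for usage.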
